A study of Mus musculus with 32 samples.

Results

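Gene expression in the gastrocnemius medialis of mice lacking both Acvr1b and Tgfbr1 in their myofibres was set against that of control mice by polyA RNA sequencing. The comparison rests on 8 of the 32 libraries of the series, taken by the muscle and genotype of their labels. The 4 libraries of the genotype Acvr1b and Tgfbr1 KO are called double KO, and the 4 of the genotype control are called control. All genes were examined: of 55487 genes in the count table, 17536 had enough counts to be tested. Tamoxifen was injected at 6 weeks of age to remove the receptor genes from myofibres, and whole left muscles were frozen 3 months later, per the labels' protocols. The protocol text is the same for every sample, controls included, and it names neither the Cre driver nor the alleles of the control mice. The 4 gastrocnemius libraries of Acvr1b KO and the 4 of Tgfbr1 KO entered the same fit, and their ranges are given beside some genes as single KO. The animal numbers of double KO mice form a range of their own, apart from that of control mice, so that genotype and the cohort these numbers may mark cannot be told apart.

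Acvr1b and Tgfbr1 encode ALK4 and ALK5, type I receptors of the TGF-β family. A ligand such as activin, myostatin, GDF11 or TGF-β binds a type II receptor, which phosphorylates the type I receptor, and that receptor in turn phosphorylates SMAD2 and SMAD3. In muscle fibres this branch limits growth, while the related BMP branch signals through other type I receptors to SMAD1, SMAD5 and SMAD9.

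Library depth lay between 28984273 and 54436308 counts. A level is given as CPM, the usual count scaled to library size, with sizes adjusted by TMM factors, and lists of 4 values run from library 1 to library 4 of the group. A gene was called when its Benjamini-Hochberg adjusted p over all 17536 genes was under 0.05 in edgeR's quasi-likelihood test. Among the 8 libraries, double KO 1 and control 1 stood apart from the rest of their groups. The root mean square distance in log2 CPM was 0.514 to 0.575 between double KO 1 and the other double KO libraries, and 0.310 to 0.367 among those others. It was 0.531 to 0.593 between control 1 and the other controls, 0.331 to 0.436 among those others, and 0.586 to 0.776 between the groups. Mitochondrial genes took 25.99% of the counts of control 1 and 10.35% to 14.88% of those of the other 7 libraries. Where leaving out either of these libraries ended a call or moved a called value by more than 1.5 times, this is given beside the gene.

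Of the 17536 genes, 20.9% were called, 11.4% higher and 9.59% lower in double KO, and the median log2 change over all of them was 0.00. Without double KO 1, 3106 of the 3673 called genes were still called in the same direction, and without double KO 1 and control 1 together 2940 were. Both the call and a full separation of the 4 double KO from the 4 control libraries held for 16.8%. These shares are the background against which the members of each gene list are counted below. Protein-coding genes made up 1857 of the higher and 1344 of the lower calls. Of 2712 processed pseudogenes tested, 40 were higher and 160 lower, and of 359 antisense genes 13 were higher and 52 lower. Reads that align to several places were shared between them as fractions, so pseudogenes and their parent genes cannot be told apart with certainty.

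**Figure D1:**
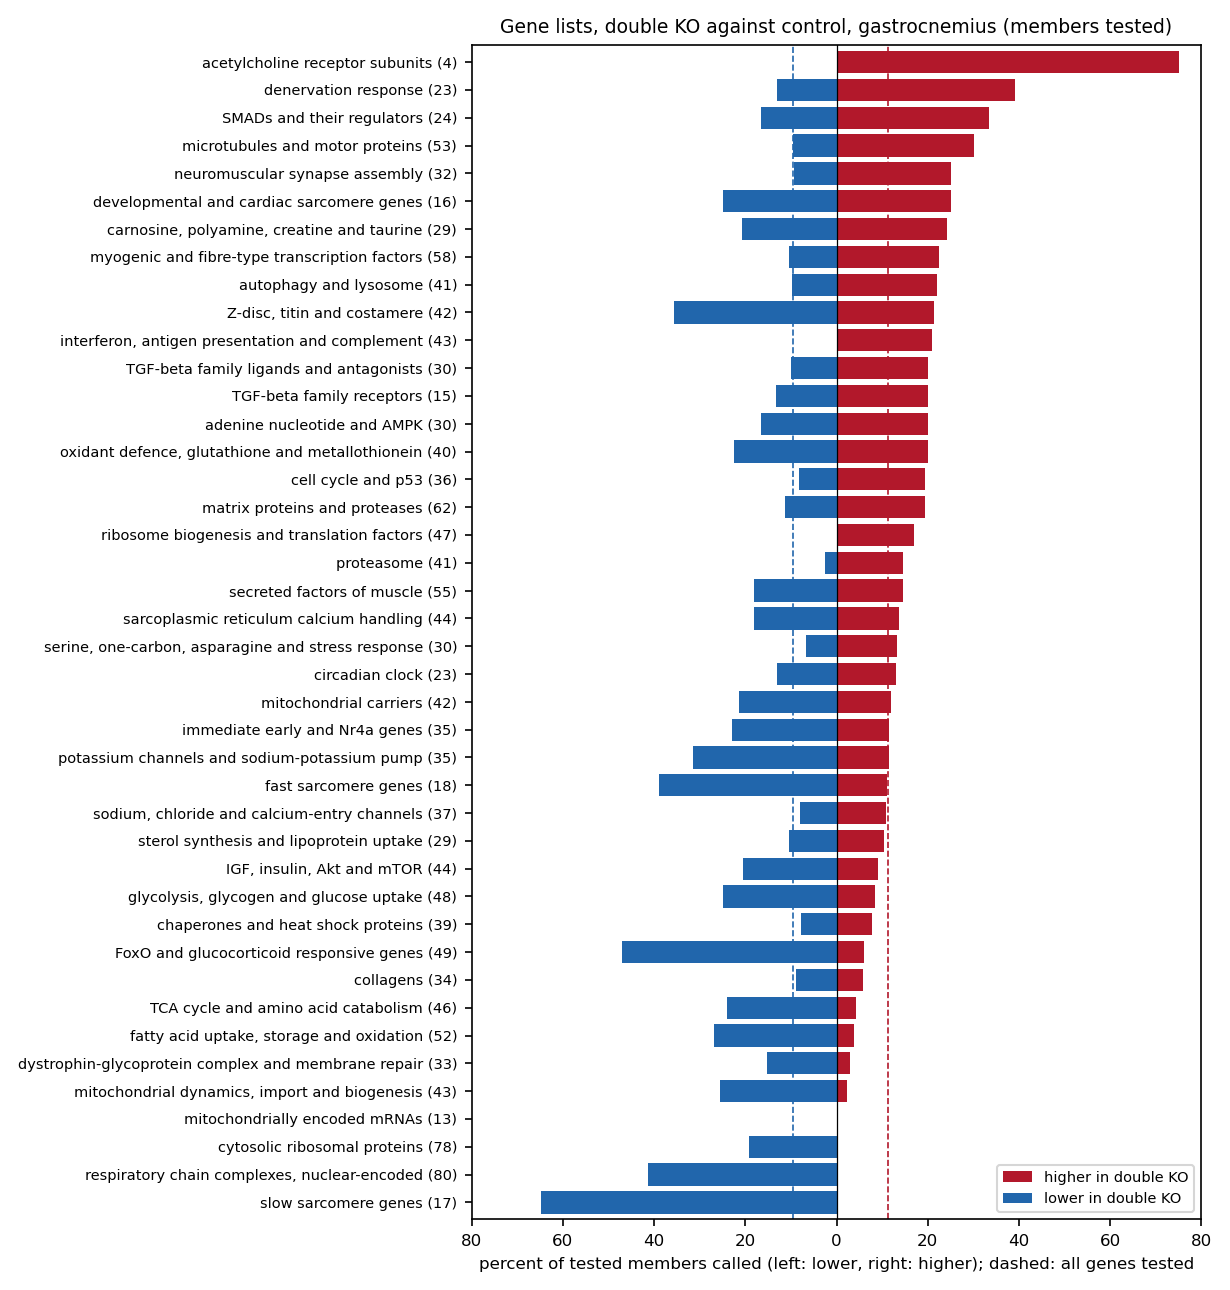
Percent of the tested members of each of 42 gene lists that were called, to the right for genes higher in double KO and to the left for genes lower in double KO than in control gastrocnemius; the number of tested members stands in brackets. Dashed lines mark the shares over all genes tested, 11.4% higher and 9.59% lower.

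The targeted genes differed in what their counts could show. Acvr1b (ENSMUSG00000000532, chromosome 15, 101174067 to 101213684 of GRCm38) measured 22, 15.7, 12.9 and 14.3 CPM in the double KO libraries, against 87.7, 107, 95.3 and 101 CPM in the control libraries. The double KO libraries lay far below the controls (log2 change −2.59, SE 0.154, adjusted p = 1.49e-08). Tgfbr1 (ENSMUSG00000007613, chromosome 4, 47353222 to 47414931) measured 53.1, 45.1, 43.6 and 35.2 CPM in the double KO libraries, against 34.9, 21.6, 27.5 and 20.7 CPM in the control libraries. Its double KO libraries were all above the controls (log2 change 0.76, SE 0.160, adjusted p = 0.00285), against the direction the label implies. Counts were summed over all exons of a gene, which cannot show the loss of single exons, so the Tgfbr1 label is not checked here and directions rest on the labels. The single KO libraries, which include both genotypes, spanned 21.7 to 96.9 CPM for Acvr1b and 22.2 to 29.7 CPM for Tgfbr1. Genes within 20 Mb of either locus, or on unplaced scaffolds, were called in 159 of 544 cases. Of the genes named below, those called there are Shisal1 and Ppara near Acvr1b, and Nr4a3, Polr1e and Dnajb5 near Tgfbr1, where Musk, not called, also lies. DNA that travels with the targeted alleles may differ there between the groups, and its part in these calls was not tested.

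The muscle nicotinic acetylcholine receptor is the channel that receives the motor nerve's signal at the neuromuscular synapse. In adult fibres it is built from α, β, δ and ε subunits, and the nuclei under the synapse transcribe these genes most. The promoters of the ε and α subunit genes are shown because both subunits rose and because 2 short motifs have long been tied to such genes. These are the E-box CAGCTG, a form of the CANNTG sites that myogenic factors bind, and the N-box CCGGAA, which ETS factors bind at synaptic genes. The 300-base windows, from RefSeq on GRCm38.p6, run from 250 bases before to 50 bases after the start of the gene on its own strand, and capitals mark CAGCTG and CCGGAA.
Chrne, chr11:70619145-70619444, minus strand: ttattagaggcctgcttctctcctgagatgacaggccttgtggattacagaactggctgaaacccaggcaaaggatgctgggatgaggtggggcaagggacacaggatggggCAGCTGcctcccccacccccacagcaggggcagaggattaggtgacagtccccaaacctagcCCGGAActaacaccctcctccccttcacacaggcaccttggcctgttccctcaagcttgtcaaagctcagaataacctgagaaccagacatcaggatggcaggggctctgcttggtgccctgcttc
Chrna1, chr2:73580289-73580588, minus strand: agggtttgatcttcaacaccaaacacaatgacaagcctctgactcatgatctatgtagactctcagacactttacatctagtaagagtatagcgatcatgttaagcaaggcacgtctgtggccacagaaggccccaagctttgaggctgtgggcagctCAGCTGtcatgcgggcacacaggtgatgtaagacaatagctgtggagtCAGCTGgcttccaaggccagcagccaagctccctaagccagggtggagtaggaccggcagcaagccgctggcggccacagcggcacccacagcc
In the Chrne window CAGCTG begins at position −138 and CCGGAA at −76 from the start; in the Chrna1 window CAGCTG begins at −92 and at −44, and CCGGAA was not found. CAGCTG also begins at −155 and at −132 in the Chrng window and at −68 in the Musk window, and is not in that of Chrnb1; Musk, which encodes a receptor kinase of the synapse, did not pass the test (log2 change −0.54, adjusted p = 0.0938). Both strands were searched, and CAGCTG, which reads the same on both, is itself 1 of the CANNTG forms. Over 32851 promoter windows of the same length, 16.3% held CAGCTG, 72.3% held CANNTG and 14.9% held CCGGAA. The SMAD palindrome GTCTAGAC was in 0.213% of windows and in 0 of the 5 searched here, which were Chrna1, Chrnb1, Chrne, Chrng and Musk. A match of letters is a description and shows no binding.

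Of the 4 receptor subunit genes tested, 3 rose and 0 fell in double KO. Chrne, the adult ε subunit, measured 53.1, 50.9, 48.1 and 48.0 CPM in the double KO libraries, against 6.17, 9.26, 9 and 8.81 CPM in the control libraries. The 4 double KO libraries differed little from each other and lay far above every control (log2 change 2.59, SE 0.111, adjusted p = 5.38e-10), while the single KO libraries spanned 7.45 to 9.02 CPM. Chrna1, the α subunit that binds acetylcholine, measured 68.8, 20.7, 19.9 and 17.2 CPM in the double KO libraries, against 11.4, 9.97, 11.6 and 13.5 CPM in the control libraries. Double KO 1 stood above all others; without it the log2 change was 0.73 in place of 1.44 (SE 0.322, adjusted p = 0.00436, and 0.000125 without double KO 1). Chrnd, the δ subunit, measured 8.88, 3.78, 4.02 and 3.50 CPM in the double KO libraries, against 1.34, 2.42, 2.33 and 2.28 CPM in the control libraries. It too was highest in double KO 1, and the groups stayed apart (log2 change 1.26, SE 0.263, adjusted p = 0.00269). Chrnb1, the β subunit, measured 32.8, 20.1, 18 and 17.1 CPM in the double KO libraries, against 23.7, 21.5, 16.9 and 24 CPM in the control libraries. The groups overlapped, and Chrnb1 did not pass the test (log2 change 0.03, adjusted p = 0.933). Chrng, the γ subunit of foetal receptors, had too few counts to be tested.

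Genes that build or maintain the synapse moved only in part with the receptor. Of 32 tested members of that list, 8 rose, 3 fell and 21 were not called, with a median log2 change of 0.12 (11 calls in all, but 7 without double KO 2, 6 without double KO 3 and 7 without double KO 4). Rapsn, Dok7 and Agrn of that list, named after their values were seen, did not pass. Their log2 changes were −0.09, −0.41 and −0.09 (adjusted p = 0.680, 0.179 and 0.737). Among those that rose were Etv5 and Etv4, ETS factors. The ETS genes Gabpa and Etv1 and the Gabpa partner Gabpb1, all of the list and named after their values were seen, did not pass. Gabpa, which binds the N-box, had a log2 change of −0.10 (adjusted p = 0.574). The log2 changes of Gabpb1 and Etv1 were 0.13 and 0.14 (adjusted p = 0.558 and 0.699). Etv5 measured 15.3, 18.3, 16.9 and 15.8 CPM in the double KO libraries, against 7.93, 7.88, 7.92 and 7.90 CPM in the control libraries, with no overlap (log2 change 1.07, SE 0.0878, adjusted p = 5.33e-07). Etv4 measured 2.47, 3.70, 3.83 and 3.57 CPM in the double KO libraries, against 0.942, 0.806, 0.778 and 1.54 CPM in the control libraries, again with no overlap (log2 change 1.72, SE 0.206, adjusted p = 2.17e-05). Prkar1a, a regulatory subunit of protein kinase A that is enriched at the synapse, ranged over 149 to 172 CPM in double KO and 93.1 to 122 CPM in control libraries (log2 change 0.62, adjusted p = 0.000105). Ache, which encodes the enzyme that breaks down acetylcholine, measured 17.8, 45.2, 44.5 and 40.8 CPM in the double KO libraries, against 17.7, 17.6, 13.1 and 21.3 CPM in the control libraries. Double KO 1 fell among the controls, and the other 3 double KO libraries were above all of them (log2 change 1.09, SE 0.211, adjusted p = 0.00154, or 2.08e-06 without double KO 1). Ufsp1, a protease for the modifier UFM1, showed the same shape, with 7.24 CPM in double KO 1, 15.1 to 17 CPM in double KO 2 to 4 and 6.66 to 9.88 CPM in controls (log2 change 0.66, adjusted p = 0.0240); the call was lost without control 3 or double KO 2, 3 or 4, with an adjusted p of up to 0.0781. In a whole muscle, fewer cells of a type and less RNA per cell cannot be told apart, and this holds for every gene below.

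**Figure D2:**
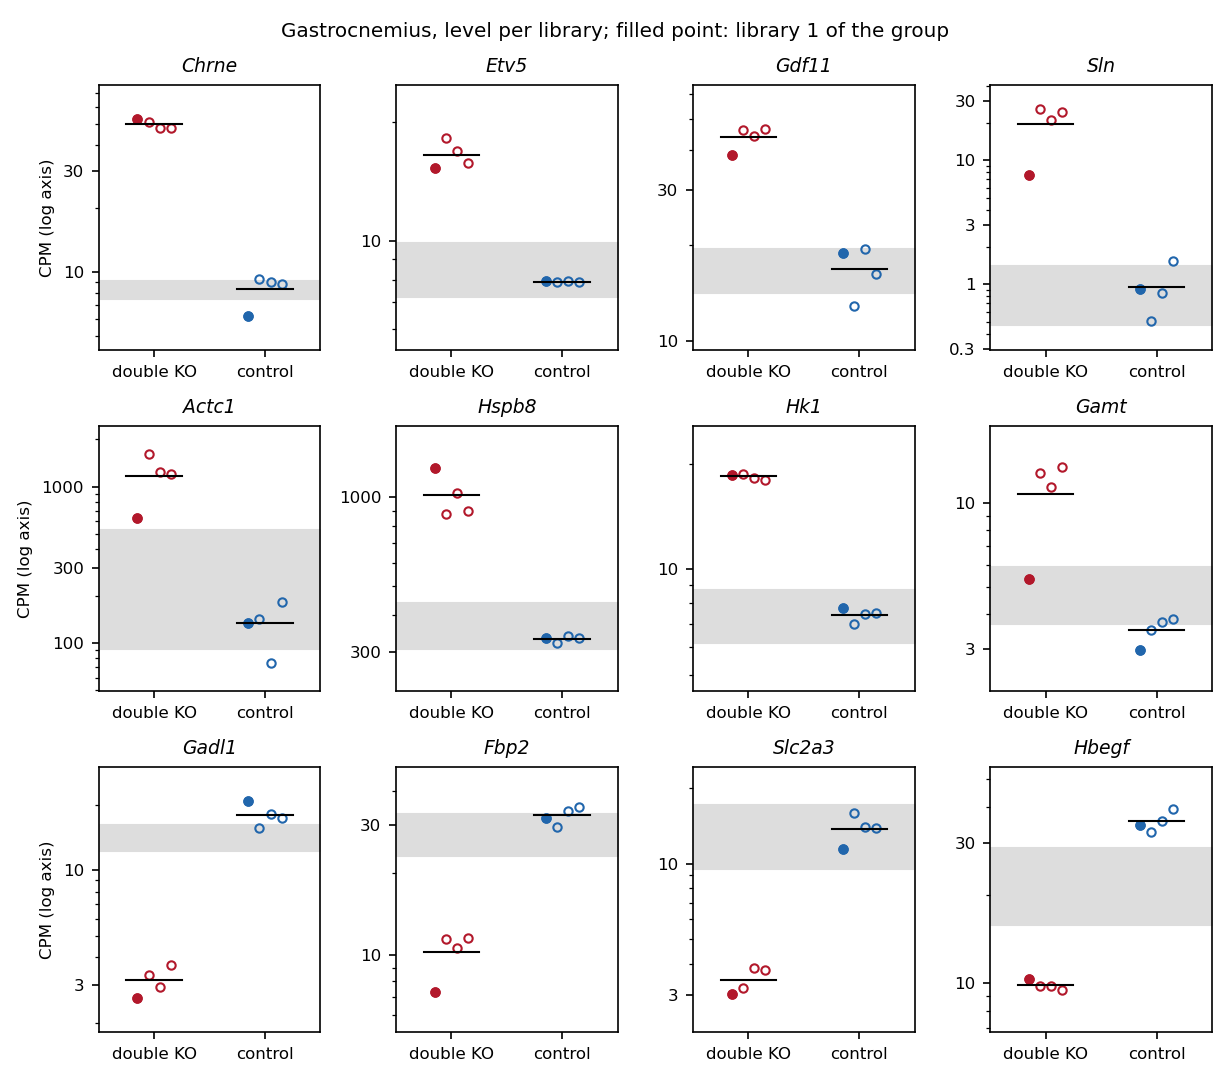
Level of 12 genes in each of the 4 double KO (red, left) and 4 control (blue, right) gastrocnemius libraries, in CPM on log axes that differ between panels. Filled points are library 1 of the group, horizontal lines the group means, and grey bands the range of the 8 single KO libraries; in all 12 panels the 2 groups are apart.

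Receptors, ligands and transducers of the TGF-β family showed changes on both sides of the pathway. Of 15 receptor and co-receptor genes tested, 3 rose and 2 fell, and besides the targeted pair the called changes were small. Without double KO 1, 5 rose and 1 fell. Acvr2a, a type II receptor named after its values were seen, did not pass (log2 change 0.71, adjusted p = 0.0606). Tgfbr2, the type II receptor for TGF-β, ranged over 31.4 to 35.4 CPM in double KO and 22.6 to 29.5 CPM in control libraries (log2 change 0.36, adjusted p = 0.0140). Rgmb, a BMP co-receptor, ranged over 39.4 to 43.2 CPM in double KO and 28.5 to 31.7 CPM in control libraries (log2 change 0.44, adjusted p = 0.000158). Its relative Hfe2, haemojuvelin, ranged over 410.2 to 485 CPM in double KO and 494 to 588 CPM in control libraries (log2 change −0.27, adjusted p = 0.0237). In these 3 genes the groups did not overlap, but for Hfe2 the call was lost without control 2, 3 or 4, or double KO 1, with an adjusted p of up to 0.0669.

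Among 30 ligands and antagonists tested, 6 rose and 3 fell (9 calls in all, but 5 without control 2, 14 without double KO 1 and 5 without double KO 3). Gdf11, a close relative of myostatin, measured 38.6, 46.4, 44.2 and 46.5 CPM in the double KO libraries, against 18.9, 12.9, 19.5 and 16.2 CPM in the control libraries. Every double KO library was well above every control (log2 change 1.38, SE 0.124, adjusted p = 1.28e-06). Inhba, the βA chain of activin, measured 1.36, 5.13, 4.32 and 5.13 CPM in the double KO libraries, against 1.91, 1.23, 1.29 and 1.19 CPM in the control libraries. Double KO 1 lay within the control range and the other 3 lay above it (log2 change 1.51, SE 0.335, adjusted p = 0.00417, or 6.15e-05 without double KO 1). Mstn itself overlapped between the groups, at 80.2 to 94.9 CPM in double KO and 84.5 to 126 CPM in control libraries (log2 change −0.24, adjusted p = 0.313). Ltbp2 and Ltbp4 encode matrix proteins of the latent TGF-β binding protein family. Ltbp2 ranged over 0.905 to 1.19 CPM in double KO and 0.277 to 0.474 CPM in control libraries (log2 change 1.53, adjusted p = 0.000711), apart in all libraries. Ltbp4 measured 45.5 CPM in double KO 1 and 82 to 93 CPM in the other double KO libraries, against 34.9 to 53.7 CPM in controls (log2 change 0.73, adjusted p = 0.0214). For Ltbp4 the call was lost without control 1 or 2, or double KO 3 or 4, with an adjusted p of up to 0.0726.

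SMADs and their regulators held more calls than the background: 8 of 24 were higher and 4 lower. Smad9, a transducer of the BMP branch, measured 0.616, 1.32, 1.3 and 1.31 CPM in the double KO libraries, against 0.124, 0.227, 0 and 0.186 CPM in the control libraries. It was near the lower limit of detection in controls and higher in every double KO library (log2 change 2.98, SE 0.432, adjusted p = 0.000133). Id1, Id2 and Id3, which encode inhibitors of helix-loop-helix factors and are classic BMP targets, were higher. Id3 measured 7.74, 4.29, 7.34 and 5.34 CPM in double KO and 1.14, 2.59, 2.37 and 2.98 CPM in control muscle (log2 change 1.44, adjusted p = 0.000813). Id1 measured 4.10, 4.81, 3.85 and 2.92 CPM in double KO and 1.39, 2.62, 1.12 and 2.14 CPM in control muscle (log2 change 1.09, adjusted p = 0.00923). Id2 measured 3.82, 1.24, 1.60 and 0.816 CPM in double KO and 0.595, 0.780, 0.812 and 0.583 CPM in control muscle (log2 change 1.42, adjusted p = 0.0131). The 3 Id genes did not overlap between the groups, and Id2 was highest in double KO 1 (log2 change 0.83 without it) and did not pass without double KO 1 and control 1 (adjusted p = 0.0669). Pmepa1, a SMAD3 target that feeds back on the pathway, measured 10.5, 10.2, 9.01 and 7.30 CPM in the double KO libraries, against 23.9, 15.8, 23.4 and 20.2 CPM in the control libraries. It was lower in every double KO library (log2 change −1.17, SE 0.133, adjusted p = 1.32e-05). Other members were named after their values were seen. Smad5 of the BMP branch and Smad4 were called lower, with log2 changes of −0.43 and −0.34 (adjusted p = 0.00207 and 0.0139). Smad7 was called higher (log2 change 0.58, adjusted p = 0.0168). Smad1 of the BMP branch and Id4 did not pass (log2 changes 0.07 and 0.04, adjusted p = 0.676 and 0.949). How these calls depend on single libraries is not given here.

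Genes that rise when a muscle loses its nerve included large changes, and several of these rested on double KO 1. Of 23 tested members, 9 rose and 3 fell; without double KO 1, 5 rose and 7 fell, and the median log2 change was −0.13 in place of 0.32. Myog, the myogenic factor myogenin, measured 13.6, 2.13, 2.11 and 2.33 CPM in the double KO libraries, against 1.02, 2.17, 1.15 and 1.33 CPM in the control libraries. Double KO 1 was far above the rest; the log2 change was 0.63 without it, in place of 1.80 (SE 0.518, adjusted p = 0.0202), and the call was lost without control 1 or double KO 1, with an adjusted p of up to 0.0815. Gadd45a, a growth-arrest factor, measured 308, 69.6, 72 and 64.0 CPM in the double KO libraries, against 22.8, 23.4, 15.5 and 18.5 CPM in the control libraries. All 4 double KO libraries lay above the controls (log2 change 2.68, SE 0.414, adjusted p = 0.000247), and without double KO 1 the log2 change was still 1.77 (adjusted p = 3.35e-06).

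Other members of that list were also highest in double KO 1. Uchl1, a ubiquitin hydrolase of neurons and denervated fibres, measured 44.5, 18.6, 13.5 and 10 CPM in the double KO libraries, against 2.26, 2.62, 3.08 and 3.75 CPM in the control libraries. The groups were apart (log2 change 2.88, SE 0.359, adjusted p = 3.09e-05, log2 change 2.26 without double KO 1). Ankrd1, a stretch-responsive ankyrin repeat protein, measured 102, 17.4, 16.7 and 15.8 CPM in the double KO libraries, against 14.4, 4.63, 7.21 and 8.6 CPM in the control libraries. Double KO 2 to 4 were only just above control 1 (log2 change 2.11, SE 0.542, adjusted p = 0.0106; log2 change 0.93 without double KO 1). Rrad, a small GTPase that damps calcium channels, overlapped between the groups, at 2.22 to 10.9 CPM in double KO and 0.403 to 3.15 CPM in control libraries (log2 change 1.87, adjusted p = 0.0311), and the call was lost without control 2, 3 or 4, or double KO 1 or 3, with an adjusted p of up to 0.118. Schwann cell and nerve markers were not called: 0 of 13 passed (1 without control 1, and 2 with only the 8 libraries in the fit), with a median log2 change of −0.49, and their summed level was 41.7 to 47.8 CPM in double KO and 47.0 to 73.9 CPM in control libraries. Whether the nerve supply of double KO 1 differed was not tested.

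**Figure D3:**
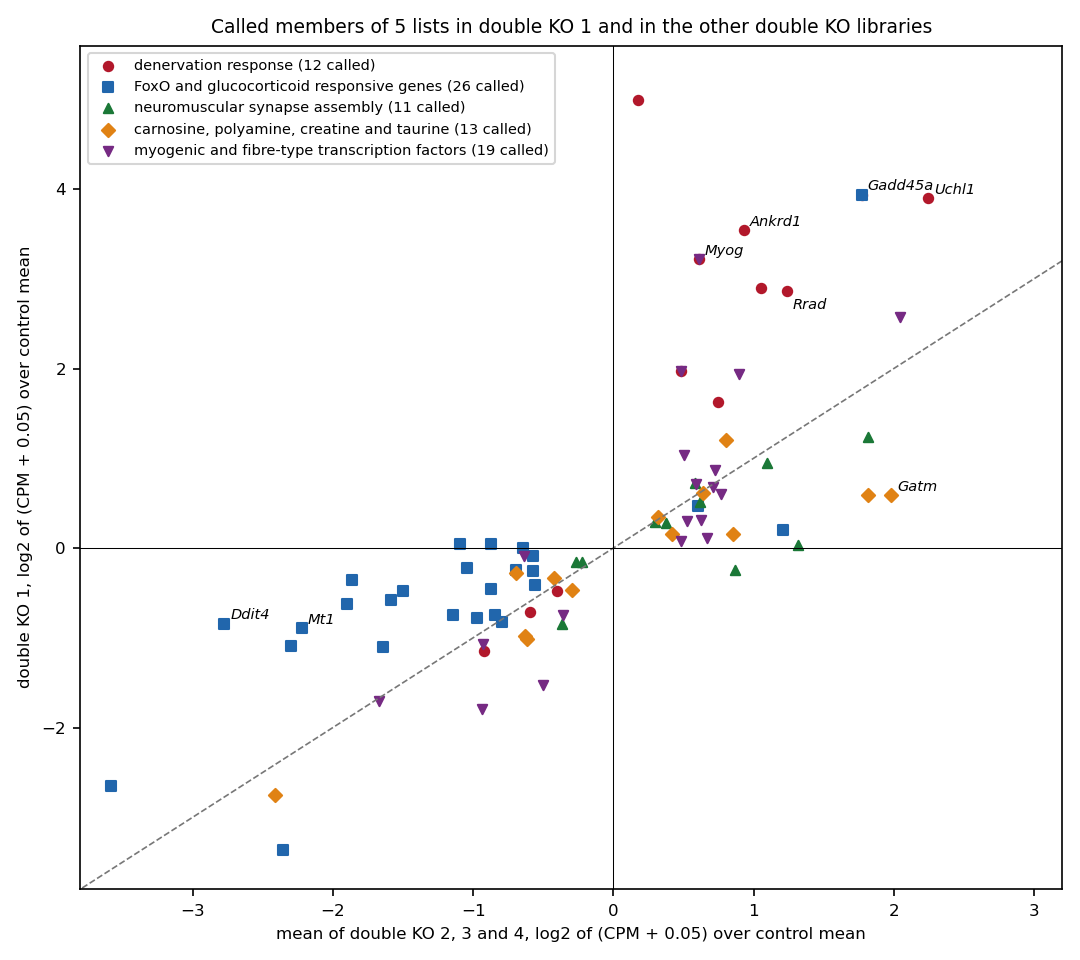
Called members of 5 gene lists: the vertical axis gives double KO 1 and the horizontal axis the mean of double KO 2 to 4, each as log2 of (CPM + 0.05) over the control mean, and the dashed line marks equal values. Denervation genes such as Myog and Ankrd1 lie far above the line, while Ddit4 of the FoxO and glucocorticoid list lies nearer to 0 in double KO 1 than in the other double KO libraries.

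Slow-fibre genes of the contractile apparatus were lower as a group: 11 of 17 tested fell, 0 rose, and the median log2 change was −0.80. The summed skeletal muscle fibre markers, most of them fast sarcomere genes, were lower as well, at 150583 to 170505 CPM in double KO and 175301 to 200256 CPM in control libraries, without overlap, and the part of that shift in the falls of contractile and respiratory genes was not tested. Tnnt1, slow troponin T, measured 91.5, 130.2, 104 and 105 CPM in the double KO libraries, against 307, 195, 172 and 254 CPM in the control libraries. The groups did not overlap (log2 change −1.11, SE 0.148, adjusted p = 5.97e-05). Mb, myoglobin, which stores oxygen in oxidative fibres, measured 1365, 766, 869 and 952 CPM in the double KO libraries, against 1728, 2131, 2079 and 2357 CPM in the control libraries. It was also lower throughout, and least so in double KO 1 (log2 change −1.07, SE 0.15, adjusted p = 9.25e-05). Ankrd2, a stretch sensor of slow fibres, measured 83.4, 118, 70 and 63.1 CPM in double KO and 123, 210.3, 157 and 189 CPM in control muscle (log2 change −1.02, adjusted p = 0.00112). Tnni1, Tnnc1 and Myh7, the slow troponin I, the slow and cardiac troponin C and the slow myosin heavy chain, had log2 changes of −1.04, −1.05 and −0.94, each without overlap. Tnnc1, Tnnt1 and Myh7 hold reads shared with other places in the genome.

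Fast sarcomere genes split. Of 18 tested, 2 rose and 7 fell, with a median of −0.19. Mybph, a myosin-binding protein, measured 248, 379.6, 430.4 and 386 CPM in the double KO libraries, against 62.6, 49.9, 22.4 and 66.8 CPM in the control libraries. It was several times higher in every double KO library (log2 change 2.84, SE 0.381, adjusted p = 6.39e-05). Mylk4, a myosin light chain kinase, ranged over 1417 to 1604 CPM in double KO and 2101 to 3252 CPM in control libraries (log2 change −0.77, adjusted p = 7.31e-05), apart in all libraries. Of the adult fast myosins, Myh4 (IIb) ranged over 48563 to 55940.3 CPM in double KO and 64849 to 88721 CPM in control libraries (log2 change −0.47, adjusted p = 0.00339) and Myh2 (IIa) over 3007 to 4380.2 CPM in double KO and 5184 to 6276 CPM in control libraries (log2 change −0.58, adjusted p = 0.00115). Myh1 (IIx) overlapped, at 4093 to 6298 CPM in double KO and 4860.0 to 6993 CPM in control libraries (log2 change −0.39, adjusted p = 0.0748), and passed without double KO 1 (adjusted p = 0.00679). Myosin genes share long stretches of sequence, and these counts were split between them. Actn3, the fast α-actinin, rose (7508 to 10137 CPM in double KO and 6936 to 7468 CPM in control libraries, log2 change 0.35, adjusted p = 0.0114).

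Genes of developing and cardiac sarcomeres held 4 higher and 4 lower calls among 16. Actc1, cardiac α-actin, measured 627, 1620.4, 1242 and 1201 CPM in the double KO libraries, against 135, 143, 74.2 and 182 CPM in the control libraries. Double KO 1 was the lowest of its group and still above the controls (log2 change 3.13, SE 0.363, adjusted p = 1.58e-05); the single KO libraries spanned 91 to 527 CPM. Nes, the intermediate filament nestin, measured 125, 158, 157 and 167 CPM in the double KO libraries, against 60.5, 39.8, 41.4 and 45.7 CPM in the control libraries, with wide separation (log2 change 1.69, SE 0.136, adjusted p = 4.83e-07). Myh6 and Myh8, the cardiac α and the perinatal myosin, did not follow Actc1: their log2 changes were −0.87 and −0.62 (adjusted p = 0.000118 and 0.0153), that of Myh8 being −0.35 without control 1. With only the 8 libraries in the fit Myh8 did not pass (adjusted p = 0.0716). Both genes hold reads shared with other places in the genome, and the part of other myosin genes in these levels and changes was not tested.

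At the Z-disc, titin and costamere, 9 of 42 members rose and 15 fell, more calls than the background in both directions. Obsl1, an obscurin-like linker of titin, measured 34.4, 56.0, 59.9 and 54.7 CPM in the double KO libraries, against 15.9, 21.7, 17.4 and 29.9 CPM in the control libraries. Itgb1bp2, melusin, a sensor of mechanical load that binds integrins, measured 137, 204, 229 and 222 CPM in the double KO libraries, against 102, 84.2, 70.3 and 97 CPM in the control libraries. In both genes all 4 double KO libraries were higher, with log2 changes of 1.27 (adjusted p = 0.000138) and 1.16 (adjusted p = 5.85e-05). Pdlim3, which ties α-actinin to signalling proteins, ranged over 545 to 742 CPM in double KO and 336 to 359 CPM in control libraries, double KO 1 being the highest (log2 change 0.77, adjusted p = 2.33e-05). Lmod2, a leiomodin that lengthens thin filaments, measured 242, 105, 101 and 105 CPM in the double KO libraries, against 303, 263, 250.2 and 259 CPM in the control libraries. Double KO 1 lay close to the controls and the other 3 far below (log2 change −0.96, SE 0.245, adjusted p = 0.0103; log2 change −1.37 without double KO 1).

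Small heat shock proteins guard filaments under strain, and 3 of 39 chaperone genes rose while 3 fell. The list's called share was 15.4%, against 20.9% of all genes. Hspb8, which works with BAG3 to clear damaged filament proteins, measured 1255, 880.4, 1033 and 897 CPM in the double KO libraries, against 335, 322, 339.8 and 336 CPM in the control libraries. No library overlapped (log2 change 1.61, SE 0.111, adjusted p = 7.84e-08), and the single KO libraries spanned 308 to 439.8 CPM. Hspb1, another small heat shock protein, measured 232, 85.1, 112 and 115 CPM in double KO and 54.4, 64.6, 66.2 and 70.3 CPM in control muscle (log2 change 1.09, adjusted p = 0.00402), highest in double KO 1 (log2 change 0.70 without it). Cryab, αB-crystallin, overlapped (466 to 642 CPM in double KO and 389 to 499 CPM in control libraries, log2 change 0.46, adjusted p = 0.0458), and the call was lost without control 1, 2 or 3, or double KO 1, 3 or 4, with an adjusted p of up to 0.108. Dnajb5 and Fkbp4, a DNAJ co-chaperone and an HSP90 co-chaperone, fell, with log2 changes of −0.51 (adjusted p = 0.000187) and −0.35 (adjusted p = 0.0126); without double KO 1 and control 1 Fkbp4 did not pass (adjusted p = 0.0512).

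The dystrophin complex links the cytoskeleton to the matrix, and 1 of its 33 tested genes rose while 5 fell. That is 18.2% called, against 20.9% of all genes. Partners of the complex were among the falls. Sntb1, β1-syntrophin, measured 1.11, 1.22, 0.720 and 0.793 CPM in the double KO libraries, against 4.26, 3.12, 4.47 and 2.94 CPM in the control libraries. Nos1, the neuronal nitric oxide synthase that syntrophin anchors, measured 112, 55.5, 67.4 and 75.5 CPM in the double KO libraries, against 202, 146, 163 and 187 CPM in the control libraries. Dtnb, β-dystrobrevin, measured 2.25, 1.03, 1.39 and 1.61 CPM in the double KO libraries, against 2.75, 2.92, 3.92 and 3.10 CPM in the control libraries. All 3 were lower in every double KO library, by log2 changes of −1.95 (adjusted p = 1.52e-05), −1.17 (adjusted p = 8.21e-05) and −1.02 (adjusted p = 0.00180), and all 3 hold shared reads.

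Ion channels changed gene by gene. Of 35 potassium channel and pump genes, 4 rose and 11 fell, and of 37 sodium, chloride and calcium-entry channel genes, 4 rose and 3 fell. The called shares were 42.9% and 18.9%, against 20.9% of all genes. Kcnn3 encodes the small-conductance calcium-activated potassium channel SK3, known from denervated and developing muscle. It measured 18.2, 7.26, 6.22 and 5.6 CPM in the double KO libraries, against 1.07, 0.856, 0.913 and 0.979 CPM in the control libraries. All double KO libraries were above the controls, double KO 1 most (log2 change 3.27, SE 0.350, adjusted p = 7.50e-06; log2 change 2.73 without it). Kcnk5, a leak channel, measured 3.17, 0.972, 1.56 and 0.653 CPM in double KO and 0.198, 0.503, 0.507 and 0.513 CPM in control muscle (log2 change 1.86, adjusted p = 0.00905); without double KO 1 and control 1 it did not pass (log2 change 1.05, adjusted p = 0.0629). Scn3b and Scn2b, β subunits of sodium channels, were both lower. Scn3b measured 0.555, 0.675, 0.418 and 0.420 CPM in the double KO libraries, against 1.88, 2.72, 1.18 and 2.28 CPM in the control libraries (log2 change −1.98, SE 0.291, adjusted p = 0.000148), and Scn2b ranged over 1.27 to 2.05 CPM in double KO and 2.26 to 3.99 CPM in control libraries (log2 change −0.93, adjusted p = 0.00403). Kcnj8 and Abcc9, the pore and the sulphonylurea receptor of a potassium channel that opens when ATP is low, fell (−0.89 and −0.24, adjusted p = 0.0119 and 0.0445); both also mark pericytes, and the summed pericyte and smooth muscle markers were 457 to 561 CPM in double KO and 551 to 728 CPM in control libraries, a shift whose part in these 2 calls was not tested. For Abcc9 the call was lost without control 1, 3 or 4, or double KO 1, 2, 3 or 4, with an adjusted p of up to 0.0972.

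In the sarcoplasmic reticulum, 6 of 44 calcium-handling genes rose and 8 fell, and without double KO 1 9 rose and 7 fell. Sln encodes sarcolipin, a small peptide that slows the calcium pump SERCA. It measured 7.64, 25.7, 21 and 24.7 CPM in the double KO libraries, against 0.917, 0.503, 0.846 and 1.54 CPM in the control libraries. Every double KO library was above every control, double KO 1 least (log2 change 4.36, SE 0.379, adjusted p = 9.32e-07). Mrln, myoregulin, another peptide that slows the pump, measured 20.9, 11.2, 12.7 and 13.1 CPM in double KO and 17.2, 24.4, 25.6 and 22.6 CPM in control muscle. Its groups overlapped through double KO 1 (log2 change −0.63, adjusted p = 0.0100, or 0.000130 without that library). Atp2a2, the slow and cardiac SERCA, measured 210.0, 264, 249 and 258 CPM in the double KO libraries, against 389, 425, 423 and 579 CPM in the control libraries, lower throughout (log2 change −0.89, SE 0.112, adjusted p = 3.42e-05). Micu2, which gates calcium entry into mitochondria, rose (48.3 to 52.5 CPM in double KO and 31.2 to 38.4 CPM in control libraries, log2 change 0.53, adjusted p = 0.000108).

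Microtubule genes held more rises than the background, 16 of 53, with 5 falls. Katnal2, a katanin-like severing protein, measured 9.34, 9.61, 8.57 and 9.40 CPM in the double KO libraries, against 0.843, 0.655, 0.812 and 1.03 CPM in the control libraries. The double KO libraries were close together and about an order of magnitude above the controls (log2 change 3.46, SE 0.213, adjusted p = 1.92e-08). Kif5c, a kinesin heavy chain best known from neurons, measured 3.67, 7.02, 8.08 and 6.37 CPM in the double KO libraries, against 0.966, 0.453, 1.18 and 0.653 CPM in the control libraries (log2 change 2.97, SE 0.293, adjusted p = 3.24e-06). Map1a and Map1b stabilise microtubules. Map1a ranged over 69.5 to 138 CPM in double KO and 33.1 to 48.6 CPM in control libraries (log2 change 1.20, adjusted p = 0.000484) and Map1b over 37 to 47.0 CPM in double KO and 13.9 to 25.3 CPM in control libraries (log2 change 1.15, adjusted p = 8.60e-05).

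Of 48 genes of glycolysis, glycogen and glucose uptake, 4 rose and 12 fell, with a median of −0.12 (16 calls in all, but 10 without double KO 3). Hk1, a hexokinase bound to mitochondria, measured 18.7, 18.8, 18.3 and 18.1 CPM in the double KO libraries, against 7.78, 7, 7.44 and 7.50 CPM in the control libraries. Its groups were each tight and far apart (log2 change 1.31, SE 0.0877, adjusted p = 5.31e-08). Slc2a3, the high-affinity glucose transporter GLUT3, measured 3.02, 3.19, 3.83 and 3.76 CPM in the double KO libraries, against 11.4, 15.9, 14 and 13.9 CPM in the control libraries (log2 change −2, SE 0.155, adjusted p = 3.48e-07). Fbp2, muscle fructose bisphosphatase, which runs counter to glycolysis, measured 7.31, 11.5, 10.6 and 11.6 CPM in the double KO libraries, against 31.9, 29.6, 33.9 and 35.1 CPM in the control libraries (log2 change −1.67, SE 0.140, adjusted p = 7.14e-07). Tbc1d1, which restrains GLUT4 traffic until it is phosphorylated, measured 93.1, 37, 32.8 and 34 CPM in the double KO libraries, against 153, 132, 78 and 141 CPM in the control libraries. Double KO 1 fell within the control range and the others far below it (log2 change −1.36, SE 0.304, adjusted p = 0.00444). Stbd1, which binds glycogen, rose in every double KO library (80.7 to 99.6 CPM in double KO and 23.6 to 39.8 CPM in control libraries, log2 change 1.5, adjusted p = 0.000743).

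Among 29 genes of carnosine, polyamine, creatine and taurine metabolism, 7 rose and 6 fell. Gadl1, which makes the β-alanine of carnosine, measured 2.62, 3.32, 2.93 and 3.71 CPM in the double KO libraries, against 20.7, 15.6, 18.1 and 17.3 CPM in the control libraries. All 4 double KO libraries were several times lower than the lowest control (log2 change −2.51, SE 0.119, adjusted p = 1.48e-09). Gatm and Gamt carry out the first and second steps of creatine synthesis. Gatm measured 3.05, 8.75, 8.36 and 7.18 CPM in the double KO libraries, against 2.16, 1.56, 2.54 and 1.79 CPM in the control libraries (log2 change 1.78, SE 0.320, adjusted p = 0.000850). Gamt measured 5.33, 12.8, 11.4 and 13.5 CPM in the double KO libraries, against 2.97, 3.52, 3.76 and 3.85 CPM in the control libraries (log2 change 1.61, SE 0.213, adjusted p = 5.51e-05). In both genes double KO 1 was the lowest of its group and still above every control. Slc36a1, a lysosomal and plasma membrane amino acid carrier, rose (log2 change 0.92, adjusted p = 0.000475), and Ckb, brain-type creatine kinase, was higher with double KO 1 inside the control range (log2 change 0.73, adjusted p = 0.0107).

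Genes of adenine nucleotides and AMPK held 6 rises and 5 falls among 30. Nmrk2, a kinase that makes NAD from nicotinamide riboside in muscle, measured 86.5, 141, 131 and 129 CPM in the double KO libraries, against 26.8, 16.7, 44.0 and 37.2 CPM in the control libraries (log2 change 1.97, SE 0.332, adjusted p = 0.000519). Nampt, the rate-limiting enzyme of the other salvage route to NAD, measured 134, 108, 105 and 101 CPM in double KO and 252, 140.3, 149 and 138 CPM in control muscle, lower in double KO with control 1 far above the rest (log2 change −0.60, adjusted p = 0.0152, log2 change −0.36 without control 1). Ak4, a mitochondrial adenylate kinase, ranged over 9.19 to 14.5 CPM in double KO and 3.35 to 5.41 CPM in control libraries (log2 change 1.40, adjusted p = 0.000205). The AMPK subunits Prkag3 and Prkab1 rose by 0.52 (adjusted p = 0.00258) and 0.48 (adjusted p = 0.00385) in log2 units. One-carbon metabolism was represented by Mthfd2, a mitochondrial folate enzyme (7.13 to 10.6 CPM in double KO and 3.30 to 5.24 CPM in control libraries, log2 change 1.13, adjusted p = 0.000308), and Shmt1, serine hydroxymethyltransferase (10.1 to 12.9 CPM in double KO and 6.52 to 8.16 CPM in control libraries, log2 change 0.65, adjusted p = 0.00245), within a list of which 4 of 30 rose and 2 fell. The stress factor Cebpb fell (log2 change −0.80, adjusted p = 0.00601), with double KO 1 inside the control range.

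Nuclear genes of the respiratory chain were lower by small amounts: 33 of 80 fell and 0 rose, with a median log2 change of −0.25 (33 calls in all, but 56 without control 1). Ndufa5, a complex I subunit, measured 84.4, 86.8, 81.6 and 89.7 CPM in double KO and 134, 121, 105 and 117 CPM in control muscle (log2 change −0.48, adjusted p = 0.000888). Uqcrh, the hinge protein of complex III, ranged over 129 to 143 CPM in double KO and 159 to 211 CPM in control libraries (log2 change −0.46, adjusted p = 0.00370). The largest fall of the list was that of Ndufa5. The 13 mRNAs encoded by mitochondrial DNA were not called, with a median of −0.42 that turned to 0.19 without double KO 1 and control 1. mt-Cytb, cytochrome b, measured 22854, 22135, 19738 and 21202 CPM in the double KO libraries, against 54327, 19803, 22619.7 and 18178 CPM in the control libraries. Control 1 stood far above the other 7 libraries (log2 change −0.42, adjusted p = 0.305). Ppargc1a, the coactivator PGC-1α that drives mitochondrial biogenesis, measured 23.7, 25.1, 24.1 and 27.1 CPM in the double KO libraries, against 75.5, 41.9, 50.6 and 41.9 CPM in the control libraries, lower throughout (log2 change −1.07, SE 0.183, adjusted p = 0.000575).

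Of 42 mitochondrial carriers, 5 rose and 9 fell. Slc25a30, a carrier of the uncoupling protein family, measured 15, 3.35, 5.22 and 4.50 CPM in the double KO libraries, against 35.8, 34, 35.5 and 24.7 CPM in the control libraries. It was lower in every double KO library, double KO 1 least (log2 change −2.23, SE 0.426, adjusted p = 0.00141, log2 change −2.89 without it). Ucp3 and Ucp2, uncoupling proteins, had log2 changes of −0.90 (adjusted p = 0.00145) and −0.89 (adjusted p = 0.00528); Ucp2 overlapped through double KO 1. Of 52 fatty acid genes, 2 rose and 14 fell, with a median of −0.16. Without double KO 1, 2 rose and 17 fell, with a median of −0.30, and without double KO 1 and control 1, 1 rose and 27 fell, with a median of −0.35. Ppara, the nuclear receptor of fatty acid oxidation, measured 6.69, 6.97, 6.94 and 11.4 CPM in the double KO libraries, against 10.5, 23, 21.3 and 23.6 CPM in the control libraries. Double KO 4 reached just above control 1 (log2 change −1.29, SE 0.242, adjusted p = 0.00121). Plin4, which coats lipid droplets, ranged over 501 to 687 CPM in double KO and 1067 to 1474 CPM in control libraries (log2 change −1.10, adjusted p = 5.47e-05). Pdp2, the phosphatase that activates pyruvate dehydrogenase, ranged over 6.04 to 8.77 CPM in double KO and 13.4 to 20.1 CPM in control libraries (log2 change −1.24, adjusted p = 0.00119).

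Glutathione and metal-binding genes were split, 8 of 40 rising and 9 falling. Gstt3 and Gstt1, theta-class glutathione transferases, rose: Gstt3 measured 7.83, 4.32, 5.32 and 4.53 CPM in the double KO libraries, against 0.595, 0.629, 0.744 and 0.676 CPM in the control libraries (log2 change 3.05, SE 0.236, adjusted p = 3.42e-07), and Gstt1 ranged over 3.19 to 4.35 CPM in double KO and 0.909 to 2.30 CPM in control libraries (log2 change 1.40, adjusted p = 0.000298). The metallothioneins Mt1 and Mt2, zinc-binding proteins induced by glucocorticoids and metals, fell. Mt1 measured 35.4, 10.4, 16.2 and 15.5 CPM in the double KO libraries, against 52.1, 80.5, 64.5 and 65.5 CPM in the control libraries (log2 change −1.77, SE 0.348, adjusted p = 0.00176). Mt2 measured 36.6, 10.9, 19.9 and 14.6 CPM in double KO and 38.2, 73.7, 54.9 and 59.0 CPM in control muscle (log2 change −1.47, adjusted p = 0.0100). Mt3, which is not induced in the same way, was low and higher in double KO (0.945 to 1.36 CPM in double KO and 0.406 to 0.606 CPM in control libraries, log2 change 1.16, adjusted p = 0.00489). Outside the list, Slc30a2, a zinc exporter, measured 11.7, 4.78, 8.15 and 10.3 CPM in the double KO libraries, against 44.0, 62.3, 41.3 and 67.1 CPM in the control libraries (log2 change −2.62, SE 0.224, adjusted p = 8.43e-07).

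Genes that respond to glucocorticoids and to FoxO factors were lower far more often than the background: 23 of 49 fell and 3 rose, with a median log2 change of −0.52. Without double KO 1, 31 fell and 3 rose. Fkbp5, a classic glucocorticoid target that feeds back on the receptor, measured 105, 39.7, 45.4 and 51.3 CPM in the double KO libraries, against 184, 265, 182 and 266 CPM in the control libraries. The fall was least in double KO 1 and plain in all 4 libraries (log2 change −1.90, SE 0.277, adjusted p = 0.000143). Ddit4, which restrains mTOR, measured 109.9, 32, 17.4 and 36.8 CPM in the double KO libraries, against 148, 243, 189 and 208 CPM in the control libraries. Its double KO 1 value lay close below the controls (log2 change −2.01, SE 0.550, adjusted p = 0.0157, log2 change −2.78 without that library). Sesn1, a sestrin that senses leucine and also restrains mTOR, measured 40.9, 23, 16.8 and 20.6 CPM in the double KO libraries, against 51.8, 57.6, 60.3 and 58.3 CPM in the control libraries (log2 change −1.18, SE 0.256, adjusted p = 0.00367). Lcn2, the iron-binding lipocalin, measured 0.894, 0.189, 0.511 and 0.630 CPM in the double KO libraries, against 2.83, 6.52, 4.03 and 10.1 CPM in the control libraries, apart in all libraries at a low level (log2 change −3.42, SE 0.647, adjusted p = 0.00130). The ubiquitin ligases Trim63 and Fbxo32, enzymes of protein loss named after their values were seen, did not pass, with log2 changes of −0.90 (adjusted p = 0.0926) and 0.32 (adjusted p = 0.382). The list's rises included Gadd45a, described above. Its relative Gadd45b moved the other way, at 2.10 to 4.50 CPM in double KO and 13.2 to 40.1 CPM in control libraries (log2 change −2.55, adjusted p = 0.000210).

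Growth signalling itself showed 4 rises and 9 falls among 44 genes. Igfbp5, which binds insulin-like growth factors, measured 1875, 1836, 1874 and 1711 CPM in the double KO libraries, against 607, 478, 1079 and 476 CPM in the control libraries. Double KO levels were nearly equal, while control 3 stood above the other controls (log2 change 1.47, SE 0.2, adjusted p = 7.44e-05). Ddit4l, a relative of Ddit4, showed the same control library high, with 180.0, 259, 219.7 and 201 CPM in double KO and 78.9, 91.3, 191 and 66.0 CPM in control muscle (log2 change 1.01, adjusted p = 0.00914). Igf1, the growth factor, measured 10.4, 7.10, 6.78 and 4.39 CPM in double KO and 25, 8.36, 14.7 and 9.23 CPM in control muscle. It was lower in double KO with overlap, and control 1 was the highest (log2 change −1.01, adjusted p = 0.0301). Its log2 change was −0.60 without control 1, and the call was lost without control 1 or 3, or double KO 2, 3 or 4, with an adjusted p of up to 0.116.

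Single KO muscles varied widely in some of these stress genes. Sox4, a transcription factor, measured 20.5, 4.16, 4.32 and 4.83 CPM in the double KO libraries, against 113, 138, 89.6 and 109 CPM in the control libraries. The groups were apart, but the single KO libraries spanned 3.45 to 158 CPM, wider than both groups together, and the SE was large (log2 change −3.76, SE 1.18, adjusted p = 0.0346). Its log2 change was −4.66 without double KO 1, and the call was lost without control 2 or 4, or double KO 2, 3 or 4, with an adjusted p of up to 0.0925. Nr4a3, an orphan nuclear receptor induced by exercise, measured 15, 4.62, 5.46 and 4.55 CPM in the double KO libraries, against 138, 28.5, 23 and 65.0 CPM in the control libraries, with single KO libraries at 10.2 to 68.9 CPM (log2 change −3.12, SE 0.614, adjusted p = 0.00175, log2 change −3.71 without double KO 1). Among 35 immediate early genes, 4 rose and 8 fell, with a median of −0.34 (12 calls in all, but 7 without double KO 3). Maff, a small MAF factor, was even within groups, at 7.73 to 11.8 CPM in double KO and 23.9 to 29.4 CPM in control libraries (log2 change −1.47, adjusted p = 1.28e-06). Arc and Dusp4, an activity-induced gene of neurons and a phosphatase of ERK, rose, Arc to 4.04, 3.65, 4.64 and 3.80 CPM in double KO against 1.41, 1.59, 0.812 and 1.86 CPM in control libraries (log2 change 1.49, adjusted p = 3.88e-05), and Dusp4 by 1.42 on the log2 scale (adjusted p = 0.00137). Of 23 clock genes, 3 rose and 3 fell (6 calls in all, but 3 without double KO 3). Nfil3, a repressor in the clock's output, ranged over 27.1 to 33.6 CPM in double KO and 41.2 to 77.3 CPM in control libraries (log2 change −0.90, adjusted p = 0.00100).

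Transcription factors of the muscle lineage and of fibre type held 13 rises and 6 falls among 58. Myod1, the myogenic determination factor, measured 7.83, 4.73, 6.52 and 5.02 CPM in the double KO libraries, against 0.818, 1.06, 1.96 and 1.26 CPM in the control libraries. All 4 double KO libraries were above the controls, without a single outlying one (log2 change 2.26, SE 0.272, adjusted p = 2.28e-05). Myf6, or MRF4, the most abundant such factor of adult fibres, measured 175, 81.6, 90.9 and 81.9 CPM in the double KO libraries, against 43.5, 41.9, 57.6 and 39.0 CPM in the control libraries. Here double KO 1 was far above the rest (log2 change 1.24, SE 0.214, adjusted p = 0.000626, log2 change 0.90 without it). Vgll2, a cofactor of TEAD factors tied to fibre type, measured 10.1, 16.3, 17.1 and 21.4 CPM in the double KO libraries, against 34.7, 33.3, 39.9 and 32.2 CPM in the control libraries (log2 change −1.11, SE 0.169, adjusted p = 0.000212).

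Secreted factors of muscle held 8 rises and 10 falls among 55. Ostn, osteocrin or musclin, which binds the natriuretic peptide clearance receptor, measured 3.98, 6.26, 5.29 and 5.34 CPM in the double KO libraries, against 35.4, 19.7, 11.2 and 25.2 CPM in the control libraries. That receptor, Npr3, measured 42.8, 28.5, 31.4 and 26.1 CPM in the double KO libraries, against 4.76, 3.68, 4.30 and 4.87 CPM in the control libraries. The peptide was lower and the receptor higher in every double KO library (log2 change −2.13, SE 0.273, adjusted p = 4.16e-05 for Ostn, and log2 change 2.87, SE 0.194, adjusted p = 6.11e-08 for Npr3). Nrg4, a neuregulin, measured 1.91, 1.49, 1.35 and 1.40 CPM in double KO and 0.347, 0.227, 0.440 and 0.140 CPM in control muscle (log2 change 2.44, adjusted p = 0.000117). Sfrp4, which binds WNT ligands, ranged over 3.14 to 4.57 CPM in double KO and 1.34 to 1.58 CPM in control libraries (log2 change 1.36, adjusted p = 8.17e-05), and Dkk3, of the dickkopf family, over 2.28 to 3.59 CPM in double KO and 8.82 to 14.6 CPM in control libraries (log2 change −1.86, adjusted p = 0.000153).

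Lists of protein synthesis and turnover differed in their calls. With both directions counted, the ribosomal protein, ribosome biogenesis and proteasome lists each had a called share below the 20.9% of all genes. Only the autophagy and lysosome list of this paragraph was above it. None of 78 ribosomal protein genes rose and 15 fell, with a median of −0.17. This count depended on single libraries (15 calls in all, but 32 without control 1, 8 without control 2, 26 without double KO 1, 7 without double KO 2, 4 without double KO 3 and 5 without double KO 4), when only the 8 libraries entered the fit 1 fell, and without double KO 1 and control 1 52 fell. Rps12, of the small subunit, ranged over 48.1 to 51.3 CPM in double KO and 54.7 to 73 CPM in control libraries (log2 change −0.36, adjusted p = 0.00318), and its reads are shared with pseudogenes. Of 47 genes of ribosome biogenesis and translation, 8 rose and 0 fell (8 calls in all, but 4 without control 4 and 5 without double KO 3). Polr1e, a subunit of RNA polymerase I, ranged over 3.00 to 4.75 CPM in double KO and 2.32 to 2.68 CPM in control libraries (log2 change 0.60, adjusted p = 0.0109), and Eef1a2, the elongation factor of adult muscle, over 1569 to 1957 CPM in double KO and 1279 to 1524 CPM in control libraries (log2 change 0.36, adjusted p = 0.00525). Of 41 proteasome genes 6 rose and 1 fell (7 calls in all, but 4 without double KO 3 and 4 without double KO 4), the change of Pomp, an assembly factor, being 0.35 (adjusted p = 0.00215). Of 41 genes of autophagy and lysosomes 9 rose and 4 fell, 31.7% called against 20.9% of all genes; 7 rose and 6 fell without double KO 1, and 6 rose and 8 fell without double KO 1 and control 1. Ctsl, the protease cathepsin L, measured 209, 86.8, 82.7 and 83.3 CPM in the double KO libraries, against 70.5, 71.2, 70 and 68.2 CPM in the control libraries. Its control libraries were nearly equal and double KO 1 alone was far above them (log2 change 0.72, adjusted p = 0.0266, and 0.27 without double KO 1). For Ctsl the call was lost without control 2, 3 or 4, with an adjusted p of up to 0.0566. Optn, the autophagy receptor optineurin, was lower in all 4 libraries, at 71.3 to 76.5 CPM in double KO and 107 to 139 CPM in control libraries (log2 change −0.72, adjusted p = 1.03e-05).

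Targets of p53 and the cell cycle held 7 rises and 3 falls among 36; without double KO 1, 4 rose and 7 fell. Eda2r, a receptor of the TNF family and a p53 target, measured 108, 26.9, 28.5 and 24.7 CPM in the double KO libraries, against 20.9, 13.2, 25.1 and 9.39 CPM in the control libraries. Double KO 1 was far above the rest (log2 change 1.46, adjusted p = 0.0188, log2 change 0.65 without it), and the call was lost without control 2 or 4, or double KO 1, with an adjusted p of up to 0.0861. Ccne1, cyclin E1, was low and higher in double KO, at 0.378 to 0.678 CPM in double KO and 0.0496 to 0.210 CPM in control libraries (log2 change 1.95, adjusted p = 0.00140). Cdkn1c, the inhibitor p57, measured 8.72, 9.96, 7.99 and 8.70 CPM in double KO and 16.1, 16.8, 17.2 and 11.7 CPM in control muscle (log2 change −0.80, adjusted p = 0.00104).

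Markers of cells other than fibres shifted between the groups as well. Of 14 macrophage markers tested, 7 rose and 0 fell, and without double KO 1 the counts were 6 and 0. Their summed level was 183 CPM in double KO 1 and 102 to 115 CPM in double KO 2 to 4, against 73.8 to 90.8 CPM in controls. Lyz2, lysozyme, measured 60.0, 26, 27.4 and 29.2 CPM in the double KO libraries, against 14.3, 15.8, 18.2 and 15.9 CPM in the control libraries (log2 change 1.15, SE 0.203, adjusted p = 0.000732), and Adgre1, the F4/80 antigen, ranged over 1.86 to 3.70 CPM in double KO and 0.818 to 1.45 CPM in control libraries (log2 change 1.18, adjusted p = 0.00572). Interferon, antigen presentation and complement genes held 9 rises and 0 falls among 43, with a median of 0.26, and their called share of 20.9% equals that over all genes. Irf1, an interferon-induced factor, measured 3.36, 3.73, 3.71 and 3.43 CPM in the double KO libraries, against 1.36, 1.91, 1.42 and 1.63 CPM in the control libraries (log2 change 1.16, SE 0.172, adjusted p = 0.000153), and C1qc, a complement chain made by macrophages, ranged over 7.52 to 13.6 CPM in double KO and 4.51 to 6.73 CPM in control libraries (log2 change 0.79, adjusted p = 0.00415). Lymphocyte markers were too low to test, with 86 counts in all over the 4 double KO libraries and 51 over the 4 controls. Whether more macrophages account for the interferon list was not tested.

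Fibroblast and fibro-adipogenic markers rose in 5 of 13 cases and fell in 0, with summed levels of 1354 to 1505 CPM in double KO and 1143 to 1376 CPM in control libraries. Pdgfra, the receptor that marks these cells, measured 24, 29.4, 26.6 and 24.2 CPM in the double KO libraries, against 15.4, 14.5, 19.2 and 11.8 CPM in the control libraries (log2 change 0.78, SE 0.133, adjusted p = 0.000573). Beside these, matrix genes held 12 rises and 7 falls among 62 (19 calls in all, but 10 without double KO 3 and 12 without double KO 4). Collagens held 2 rises and 3 falls among 34 (5 calls in all, but 8 without control 1, 2 without control 2, 3 without control 4, 3 without double KO 2 and 3 without double KO 3). Their called share was 14.7%, against 20.9% of all genes. Bgn, the proteoglycan biglycan, measured 61.7, 93.1, 95.8 and 89.3 CPM in the double KO libraries, against 50.9, 39.5, 41.7 and 45.7 CPM in the control libraries (log2 change 0.93, SE 0.122, adjusted p = 5.08e-05). Tgfbi, a matrix protein named for its induction by TGF-β, measured 24.8, 24.6, 25.9 and 25.9 CPM in double KO and 12.4, 15.9, 16.3 and 12.6 CPM in control muscle (log2 change 0.83, adjusted p = 0.000127). Lum, the proteoglycan lumican and itself a fibroblast marker, and Col14a1, a fibril-associated collagen, had log2 changes of 1.05 (adjusted p = 0.00136) and 0.77 (adjusted p = 0.00140). The part of the fibroblast shift in these matrix changes was not tested.

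Endothelial markers were lower in 6 of 16 cases and higher in 1, with summed levels of 358 to 377 CPM in double KO and 413 to 482 CPM in control libraries, which did not overlap. Flt1, a VEGF receptor, ranged over 84 to 90.9 CPM in double KO and 101 to 128 CPM in control libraries (log2 change −0.45, adjusted p = 0.000713), and Sox17 over 9.36 to 11.9 CPM in double KO and 16.7 to 21 CPM in control libraries (log2 change −0.84, adjusted p = 0.000571). Sox18, another SOX factor of endothelium, was the exception and rose (0.810 to 1.42 CPM in double KO and 0.227 to 0.474 CPM in control libraries, log2 change 1.64, adjusted p = 0.000525). All 6 red blood cell markers tested fell, but their libraries overlapped in every case and 0 of them passed when only the 8 libraries entered the fit or when control 1, control 4, double KO 2, double KO 3 or double KO 4 was left out. Hba-a1, a globin gene, measured 88.9, 44.6, 47.3 and 45.1 CPM in double KO and 170.0, 60.0, 72.4 and 137 CPM in control muscle (log2 change −0.96, adjusted p = 0.0239), and the call was lost without control 1 or 4, or double KO 2, 3 or 4, with an adjusted p of up to 0.0799. Satellite cell markers held 1 rise and 1 fall among 10 (2 calls in all, but 0 without control 1, 1 without control 2, 1 without control 3, 1 without control 4, 1 without double KO 2, 0 without double KO 3 and 0 without double KO 4). Pax7, their defining factor, ranged over 0.740 to 0.910 CPM in double KO and 0.347 to 0.575 CPM in control libraries (log2 change 0.79, adjusted p = 0.0405), and the call was lost without control 1, 2 or 4, or double KO 2, 3 or 4, with an adjusted p of up to 0.0989. The fall was that of Calcr, named after its values were seen (log2 change −1.30, adjusted p = 0.0343). The median log2 change of the satellite cell list was −0.03. Its summed level was 68.3 to 141 CPM in double KO and 92.7 to 137 CPM in control libraries. Double KO 1 lay above every control, and the other double KO libraries lay below every control. Adipocyte markers held 1 rise and 3 falls among 9 (4 calls in all, but 2 without control 3, 2 without double KO 2, 1 without double KO 3 and 2 without double KO 4). Tenocyte markers held 0 rises and 2 falls among 10 (2 calls in all, but 4 without control 1, 1 without control 2, 1 without control 3, 1 without control 4, 1 without double KO 1, 1 without double KO 3 and 1 without double KO 4). Neutrophil markers were not called in any of 5 tested genes, at 2.57 to 6.04 CPM summed in double KO and 4.08 to 5.48 CPM in control libraries. Skeletal muscle fibre markers, which check the tissue, held 1 rise and 3 falls among 10.

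**Figure D4:**
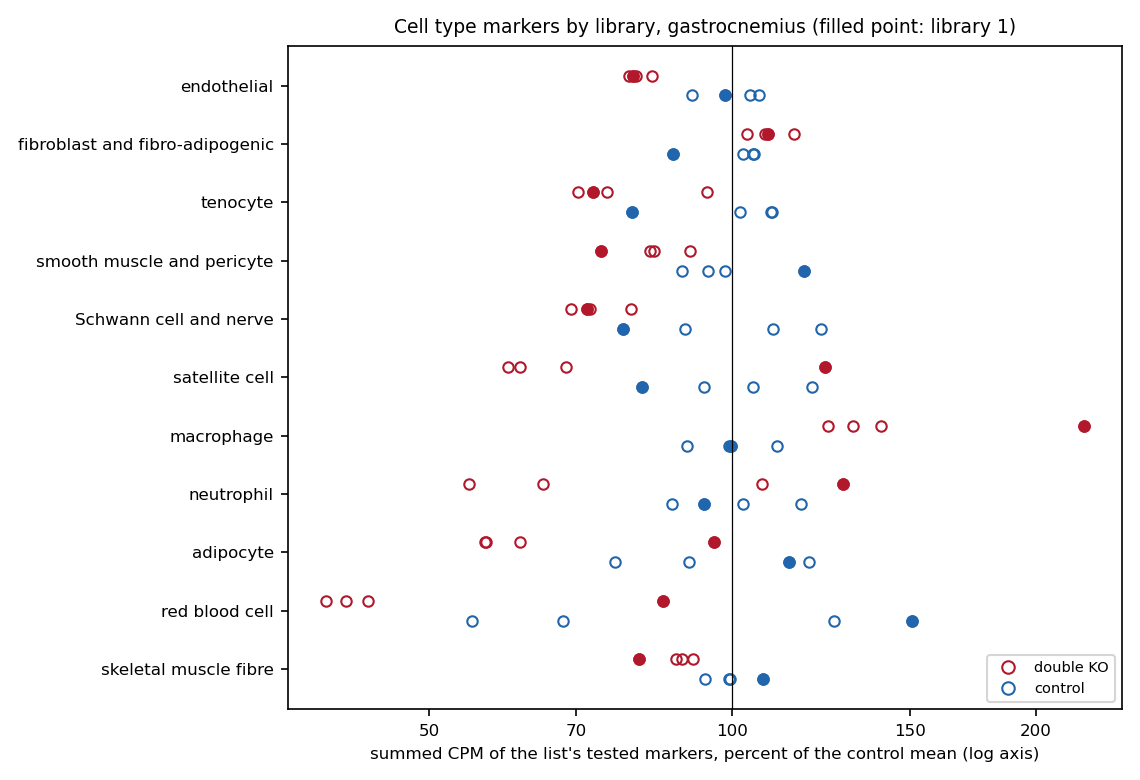
Summed CPM of the tested markers of each cell type in every double KO (red, upper row of each pair) and control (blue, lower row) gastrocnemius library, as percent of the control mean on a log axis; filled points are library 1. Macrophage markers lie above and endothelial and skeletal muscle fibre markers below the controls in all 4 double KO libraries, and the fibroblast, nerve and red blood cell markers overlap between the groups.

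Some genes were low in control muscle and several times higher in all double KO libraries. Shisal1 measured 7.27, 9.67, 6.71 and 7.81 CPM in the double KO libraries, against 0.372, 0.378, 0.575 and 0.489 CPM in the control libraries. Srrm4os, a non-coding RNA at the Srrm4 locus, measured 34.2, 35.2, 30.5 and 21.5 CPM in the double KO libraries, against 1.76, 2.34, 1.12 and 1.96 CPM in the control libraries. Pcbd1, a dehydratase of tetrahydrobiopterin recycling that also binds HNF1, measured 3.17, 3.19, 2.74 and 2.82 CPM in the double KO libraries, against 0.173, 0.176, 0.169 and 0.256 CPM in the control libraries. In all 3 the single KO libraries stayed low, at 0.244 to 0.894, 1.40 to 2.96 and 0.122 to 0.263 CPM, and the log2 changes were 4.12, 4.06 and 3.90 (adjusted p = 3.56e-09, 1.59e-08 and 3.56e-09). Dmp1, a matrix protein of bone cells, measured 2.40, 1.22, 1.83 and 1.70 CPM in the double KO libraries, against 0.149, 0.126, 0.169 and 0.0699 CPM in the control libraries (log2 change 3.80, adjusted p = 1.28e-06), and Gsdma, a gasdermin, measured 1.94, 1.40, 1.39 and 1.49 CPM in double KO and 0.198, 0.0503, 0.0338 and 0.140 CPM in control muscle (log2 change 3.77, adjusted p = 4.66e-07).

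Other genes had narrow spreads within each group and low p-values. Ccndbp1, a partner of cyclin D1, measured 39.6, 42.0, 36.8 and 42.3 CPM in the double KO libraries, against 17, 17.7, 17 and 16.8 CPM in the control libraries (log2 change 1.23, SE 0.0691, adjusted p = 7.54e-09). Rufy3, a RUN domain protein, measured 26.3, 25.1, 26.1 and 26.8 CPM in double KO and 9.34, 8.41, 10.1 and 9.14 CPM in control muscle (log2 change 1.5, adjusted p = 1.59e-08). Mreg, melanoregulin, which guides organelles, fell to 20.2, 23.8, 22.6 and 22.5 CPM in double KO libraries, against 43.7, 43.3, 47.2 and 41.8 CPM in control libraries (log2 change −0.98, adjusted p = 3.21e-07). Hbegf, an EGF-like growth factor, was nearly equal across the double KO libraries, at 10.3, 9.72, 9.75 and 9.45 CPM in double KO and 34.7, 32.8, 35.9 and 39.4 CPM in control muscle. Its single KO libraries, at 15.8 to 28.9 CPM, lay between the groups (log2 change −1.86, SE 0.158, adjusted p = 7.80e-07).

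Among genes with larger counts, Ppp1r27, a regulatory subunit of protein phosphatase 1, measured 186, 62.8, 106 and 76.5 CPM in the double KO libraries, against 17.1, 20.8, 38.8 and 16.7 CPM in the control libraries. Each double KO library was above each control, double KO 1 most (log2 change 2.21, SE 0.320, adjusted p = 0.000130). Cyp4f39, a cytochrome P450 of fatty acids, measured 15.5, 12.5, 12.8 and 11.4 CPM in double KO and 1.21, 1.64, 2.67 and 1.54 CPM in control muscle (log2 change 2.91, adjusted p = 8.96e-07). Fam174b was lowest in double KO 1 within its group, at 2.31, 19, 9.84 and 11.9 CPM in double KO and 0.719, 1.16, 1.18 and 0.862 CPM in control muscle (log2 change 3.47, adjusted p = 8.73e-05). Cdhr3, a cadherin family member, was lowest in the same library, at 0.678, 4.64, 2.67 and 6.11 CPM in double KO and 19.2, 22, 18.4 and 15.5 CPM in control muscle (log2 change −2.39, adjusted p = 0.000483). Hr and Nrip1, both corepressors of nuclear receptors, ranged over 51.5 to 86.3 against 127 to 215 CPM and 35.5 to 45.0 against 86.6 to 136 CPM (log2 changes −1.42 and −1.36, adjusted p = 8.23e-06 and 4.35e-05). Hivep2, a zinc finger factor, Gpr157, an orphan receptor, and Odf3l2 had log2 changes of −1.33, −1.45 and −2.71, with adjusted p of 8.96e-07, 5.36e-06 and 2.56e-05, each without overlap.

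The soleus, a slow muscle of the same 16 mice, gave 131 calls in 18143 genes, which is 0.722%, with 0.220% higher and 0.502% lower. Of the 3569 gastrocnemius calls that were also tested in soleus, 117 were called there, 3.28% of them, and these were 91.4% of the 128 soleus calls tested in gastrocnemius. All 117 had the same direction in both muscles, 34 higher and 83 lower. Of these 117, 26 lie near the targeted genes or on scaffolds. The same regions hold 544 of the 17536 genes tested in gastrocnemius and 159 of the 3673 called there. The part of DNA that travels with the targeted alleles in the shared calls was not tested. The median change in size of the 117 genes was 1.14 log2 in gastrocnemius and 1.05 in soleus. The fitted spread between libraries, taken over all genes, was larger in soleus than in gastrocnemius. The smaller number of soleus calls therefore does not by itself show a smaller response. Whether a change differs between the muscles was not tested, and a gene called in gastrocnemius alone is not shown to be specific to it.

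Genes of the glucocorticoid list and Sln were among those called in both. Sln measured 59.1, 43.6, 65.3 and 57.1 CPM in double KO soleus, against 24.5, 21.9, 32.6 and 20.1 CPM in control soleus, again without overlap (log2 change 1.18, adjusted p = 0.00535). Fkbp5 measured 97.6, 59.0, 74.4 and 84.3 CPM in double KO soleus, against 206, 196, 159.6 and 247 CPM in control soleus (log2 change −1.36, adjusted p = 0.00503). Gadd45b, Lcn2 and Maff likewise did not overlap there, with log2 changes of −2.52, −3.62 and −1.3 (adjusted p = 0.00453, 0.00910 and 0.00910). Chrne was not called in soleus, at 4.61, 7.57, 8.40 and 10 CPM in double KO and 6.61, 6.18, 5.61 and 7.01 CPM in control muscle, where its groups overlapped (log2 change 0.27, adjusted p = 0.683). Npr3 was high in both groups there, at 45.6, 51.2, 50.1 and 53.8 CPM in double KO and 46.7, 46.4, 36.7 and 41.4 CPM in control soleus (log2 change 0.23, adjusted p = 0.704). Mybph measured 13.3, 2.17, 2 and 2.17 CPM in double KO and 2.94, 1.27, 0.944 and 1.10 CPM in control soleus. There double KO 1 was the highest of its group, while in gastrocnemius it was the lowest.

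**Figure D5:**
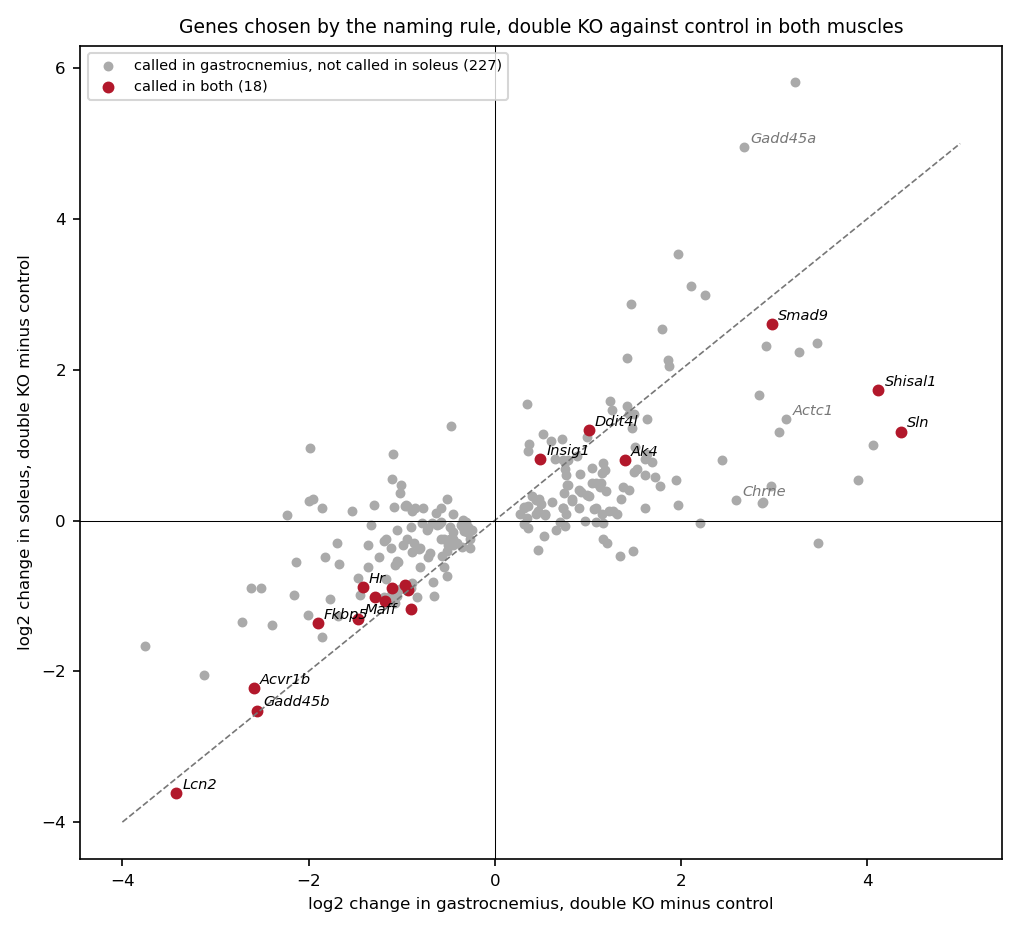
Log2 change of 245 genes chosen by the naming rule in gastrocnemius (horizontal axis) and soleus (vertical axis), double KO minus control; the dashed line marks equal changes. The 18 genes called in both muscles (red) lie on the same side of 0 in both, and 227 (grey) were not called in soleus, Chrne among them near 0 on the vertical axis.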

How the data were processed

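PolyA RNA of whole muscle, with RNA integrity numbers above 7.7, was sequenced from 16 mice, 4 of each of 4 genotypes, each giving 1 gastrocnemius and 1 soleus library, per the labels. The mice of a group carry different animal numbers and are separate animals. The deposited values are estimated counts per gene: per the file header, the authors ran featureCounts 2.0.1 on Ensembl 102 gene models of GRCm38 with the reverse-strand setting, and shared a read that aligns to several places as fractions between them. The submitters' processing notes also name cutadapt, HISAT2, FastQC 0.11.9 and DESeq2; the aligner's settings are not given in the sources used here. In 16 or more of the 32 libraries, 39.7% of tested genes had a count that was not whole. Of the genes named in the text, leaving out those named after their values were seen, these are Abcc9, Actc1, Actn3, Ak4, Atp2a2, Bgn, Chrna1, Ckb, Ctsl, Ddit4l, Dtnb, Etv5, Gadl1, Gpr157, Hba-a1, Hspb1, Inhba, Insig1, Mreg, Myh1, Myh11, Myh2, Myh4, Myh6, Myh7, Myh8, Mylk4, Nampt, Nmrk2, Nos1, Npr3, Plin4, Pomp, Ppargc1a, Rps12, Rufy3, Slc25a30, Slc2a3, Slc36a1, Sntb1, Tnnc1, Tnnt1, Trpv2, Ucp2 and Uqcrh, and their levels could be split with similar sequences.

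Counts were rounded to whole numbers and tested with edgeR 4.0.16 in R 4.3.3: filterByExpr, TMM scaling, robust quasi-likelihood fit of all 16 gastrocnemius libraries with a mean per genotype (12 residual degrees of freedom), double KO minus control, 2-sided, Benjamini-Hochberg over 17536 genes, threshold 0.05. Unadjusted p was under 0.05 for 5929 genes. The soleus libraries had a fit of their own. On simulated counts of 17328 genes, 37 of 50 genes lowered and 47 of 50 raised by 1 log2 were called, as were 10 of 50 lowered and 7 of 50 raised by 0.5 log2, with 4 unchanged genes called. The simulation gave every gene the same spread, held no outlying library and changed only these few genes. It checks the code, and its rates do not carry over to the measured libraries. Alternatives were DESeq2 1.42.0, RLE scaling, no filter on low counts, only the 8 libraries compared, the replicate number as a block, each library left out in turn, and no genes near the targeted loci. Leaving out double KO 1 and control 1 together was chosen after seeing the data.

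Members of the 42 pathway and 12 marker lists, and the genes named, were chosen with earlier results of these data known, so lists are described by counts and medians, without a test. Named genes were those called without overlap between the 8 libraries, with ordinary symbols and off the sex chromosomes, with the largest changes at 100 CPM or more or at 10 to under 100 CPM in the higher group, or with the smallest p. To these were added genes at 1 CPM or more in every library of one group and at or below 0.2 CPM in every library of the other, the 5 called members of each list with the largest change, and a short set named in any case; some genes that this rule names are not reported here. List members were taken whether or not the libraries overlapped and on any chromosome, which puts Itgb1bp2, Bgn and Eda2r of the X chromosome among them. Promoter windows came from RefSeq on GRCm38.p6, which matched 5 of the 6 genes looked up. No table of gene lengths was used, so levels are compared between libraries and never between genes.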

Additional observations from a re-analysis of the deposited data

Results flagged for a closer look

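Single libraries that stood apart from the other 3 of their group were looked for in 356 groups of 4, the double KO and the control libraries of each gene named. Genes named after their values were seen were left out. A library was marked where its gap to the nearest other took more of the group's whole range than Dixon's 95% critical value for 4 values, which chance alone does in about 1 of 20 groups. That was the case in 36 groups, or 10.1%: 23 at double KO 1, 9 at control 1 and 4 at other libraries.

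Double KO 1 was the high library of its group for Ankrd1 at 102 CPM, Chrna1 at 68.8 CPM, Chrnd at 8.88 CPM, Ctsl at 209 CPM, Dusp4 at 4.84 CPM, Eda2r at 108 CPM, Gadd45a at 308 CPM, Hba-a1 at 88.9 CPM, Kcnn3 at 18.2 CPM, Lmod2 at 242 CPM, Lyz2 at 60.0 CPM, Map1b at 47.0 CPM, Myf6 at 175 CPM, Myh1 at 6298 CPM, Myog at 13.6 CPM, Nr4a3 at 15 CPM, Pdlim3 at 742 CPM, Slc25a30 at 15 CPM, Sox4 at 20.5 CPM and Tbc1d1 at 93.1 CPM. It was the low library of its group for Ache at 17.8 CPM, Nfil3 at 27.1 CPM and Smad9 at 0.616 CPM. Its high genes include markers of denervation and of macrophages, and their part in the other values of this library was not tested.

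Control 1 was the high library of its group for Inhba at 1.91 CPM, Myh4 at 88721 CPM, Myh8 at 8003 CPM, Nampt at 252 CPM and mt-Cytb at 54327 CPM. It was the low one for Bckdha at 61.4 CPM, Chrnd at 1.34 CPM, Chrne at 6.17 CPM and Kcnk5 at 0.198 CPM. This library also had the largest share of mitochondrial counts of the 8, 25.99%, and the part of that in these values was not tested. Among the other libraries, double KO 4 was high for Ppara at 11.4 CPM, control 4 was low for Slc25a30 at 24.7 CPM and control 4 was high for Pcbd1 at 0.256 CPM and Polr1e at 2.68 CPM.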

How the results depend on the processing

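The count of 3673 genes, 1991 higher and 1682 lower, became 3915 genes, 2075 higher and 1840 lower with DESeq2, 3674 genes, 1971 higher and 1703 lower with RLE scaling, 3166 genes, 1755 higher and 1411 lower without a filter and 3501 genes, 1920 higher and 1581 lower without genes near the targeted loci. With only the 8 libraries in the fit it was 2330 genes, 1284 higher and 1046 lower; that fit has fewer residual degrees of freedom. Without double KO 1 and control 1, a setting chosen after seeing the data, it was 4354 genes, 2254 higher and 2100 lower. Leaving out 1 library at a time gave 2651 (without double KO 3) to 3872 (without control 1) calls, 1477 (without double KO 3) to 1984 (without control 1) higher and 1174 (without double KO 3) to 1888 (without control 1) lower.

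The 117 genes called in both muscles in the same direction became 34 with only the 8 libraries of each muscle, 325 with DESeq2, 190 without double KO 1 and control 1, and 70 without genes near the targeted loci, where fewer genes are counted. It was 122 with RLE scaling, 129 without a filter and 59 (without control 4) to 244 (without double KO 1) without 1 library, with 62 without control 2; the cause of these shifts was not tested.

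Of 174 called genes named in the text, 149 kept call and direction in every alternative that gave a value, 161 kept the call in all 8 fits without 1 library, and none changed direction. Genes named after their values were seen are left out here and in the lost calls given below. Calls lost with only the 8 libraries in the fit numbered 19 (Abcc9, Actn3, Ankrd1, Bckdha, Ctsl, Eda2r, Eef1a2, Hba-a1, Hfe2, Id2, Igf1, Kcnj8, Ltbp4, Mrln, Myh8, Myog, Nampt, Rrad and Ufsp1; adjusted p of 0.0516 to 0.126). Without a filter on low counts they numbered 13 (Abcc9, Ankrd1, Cryab, Ctsl, Ddit4, Eda2r, Hba-a1, Igf1, Ltbp4, Myog, Pax7, Rrad and Sox4; adjusted p of 0.0539 to 0.112), and without double KO 1 and control 1 9 (Abcc9, Cryab, Eda2r, Fkbp4, Id2, Kcnk5, Myog, Pax7 and Sox4; adjusted p of 0.0506 to 0.156). DESeq2 and RLE scaling ended none of these calls. Among genes that did not pass the test, leaving out those named after their values were seen, the log2 change turned sign for Chrnb1 and mt-Cytb. That of Chrnb1, 0.03 as reported, was −0.19 without double KO 1 and control 1 and ranged over −0.23 (without double KO 1) to 0.13 (without double KO 4) without 1 library. That of mt-Cytb, −0.42 as reported, was 0.05 without double KO 1 and control 1 and ranged over −0.59 (without control 4) to 0.08 (without control 1) without 1 library, and the cause was not tested.

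The labels number the mice of each genotype from 1 to 4. Deviations from the group means of same-numbered double KO and control libraries correlated at −0.068, −0.213, 0.009 and 0.124 for numbers 1 to 4. These values are a description, and whether same-numbered mice share a batch or a day was not tested. With the replicate number as a block, 3631 genes, 1955 higher and 1676 lower were called, 91 of them also in soleus, and 2 genes named in the text lost the call: Abcc9 and Myog. Depth limits low genes most: a gene that was not called may still have changed.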

Other observations

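Amino acid breakdown, mitochondrial regulators and channel genes gave further calls. Of 46 genes of the TCA cycle and amino acid catabolism, 2 rose and 11 fell, with a median log2 change of −0.12 and 8 calls in all without control 4, and with 6 rises and 16 falls without double KO 1 and control 1. Got1, an aspartate aminotransferase, ranged over 232 to 269.8 CPM in double KO and 291 to 402 CPM in control libraries (log2 change −0.50, adjusted p = 0.00459). Bckdha, a subunit of the complex that commits branched-chain amino acids to oxidation, moved the other way, at 102 to 138 CPM in double KO and 61.4 to 97.2 CPM in control libraries (log2 change 0.50, adjusted p = 0.0112). Of 43 genes of mitochondrial dynamics, import and biogenesis, 1 rose and 11 fell, against 4 and 15 without double KO 1 and control 1. The rise was Tfb1m, which methylates mitochondrial ribosomal RNA (4.90 to 6.41 CPM in double KO and 3.95 to 4.68 CPM in control libraries, log2 change 0.44, adjusted p = 0.00520), and the falls included Esrrg, a nuclear receptor of oxidative metabolism (19.4 to 26.4 CPM in double KO and 30 to 38.6 CPM in control libraries, log2 change −0.54, adjusted p = 0.00509). Sterol genes held 3 rises and 3 falls among 29 (6 calls in all, but 3 without double KO 1), and Insig1, which holds SREBP in the endoplasmic reticulum, was higher (8.16 to 10.2 CPM in double KO and 5.59 to 7.41 CPM in control libraries, log2 change 0.49, adjusted p = 0.00640). The called share of the sterol list was 20.7%, against 20.9% of all genes. Trpv2, a cation channel, measured 2.10, 1.13, 1.16 and 1.40 CPM in double KO and 0.644, 0.730, 0.846 and 0.839 CPM in control muscle (log2 change 0.91, adjusted p = 0.00450), and Cacna2d4, a calcium channel subunit, measured 4.56, 4.97, 5.04 and 5.79 CPM in double KO and 10.7, 8.38, 8.02 and 9.93 CPM in control muscle (log2 change −0.86, adjusted p = 0.00244).

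Markers of smaller cell populations changed one by one. Smooth muscle and pericyte markers held 0 rises and 4 falls among 11, and Myh11, the smooth muscle myosin, ranged over 23.9 to 30.9 CPM in double KO and 33.6 to 56.5 CPM in control libraries (log2 change −0.70, adjusted p = 0.00182). Its reads are shared in part with other myosin genes. Kera, the proteoglycan keratocan of tendon, measured 7.61, 4.83, 4.53 and 3.06 CPM in double KO and 14, 10.3, 12.1 and 9.07 CPM in control muscle (log2 change −1.19, adjusted p = 0.000569), and the summed tenocyte markers overlapped, at 288 to 387 CPM in double KO and 326 to 449 CPM in control libraries. Cidea, a protein that coats lipid droplets, measured 3.98, 2.03, 2.60 and 2.96 CPM in double KO and 0.768, 0.906, 0.744 and 1.31 CPM in control muscle (log2 change 1.61, adjusted p = 0.00330). Cidea was the only rise among the 9 adipocyte markers tested, of which 3 fell, with a median log2 change of −0.87. Without double KO 1, 1 rose and 5 fell, with a median of −1.50. The summed adipocyte markers overlapped, at 63.4 to 107 CPM in double KO and 85.3 to 133 CPM in control libraries. Ucp1, the uncoupling protein of brown fat, was the only listed marker at 0 counts in all 8 libraries.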
